A study of Homo sapiens with 8 samples.

Results

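The comparison described here sets LNCaP cells kept in actinomycin D alone against LNCaP cells at the end of the caffeine step that came before it. LNCaP is a prostate cancer cell line from a lymph node metastasis, and its mRNA was measured by hybridization to Affymetrix U133 Plus 2.0 chips, called arrays here. A probe set, the group of probes that reports a transcript, was included when its log2 signal was at least 4 on either of the 2 arrays compared. This took in 22157 of the 54675 probe sets. With 1 probe set per gene, the one with the highest mean over the 8 arrays of the series, 10782 of 19775 genes were included.

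The study used these treatments to look for mRNAs that nonsense-mediated decay removes. LNCaP cells of the first group spent 4 hours in 10 mM caffeine and then another 4 hours in 2 µg/ml actinomycin D without caffeine. A parallel plate had actinomycin D together with caffeine in its second step, another was harvested at the end of the 4 hours in caffeine, and the last was untreated. The 22Rv1 prostate carcinoma line, derived from a xenograft, was treated in the same 4 ways. Each treatment of each line gave 1 array, so no value for LNCaP alone has a replicate check, and no test of the LNCaP difference is possible. The first group differs from the caffeine plate in 3 ways that cannot be told apart: it had actinomycin D, its caffeine was washed out, and it was harvested later.

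Actinomycin D binds DNA and stops RNA polymerases, so after it is added an mRNA is no longer replaced and its level depends on how fast it is broken down. Unstable mRNAs, such as those of transcription factors and signalling inhibitors, are known to be lost within hours, while mRNAs of ribosomal proteins and of metabolism last for many hours. Caffeine inhibits kinases of the PIKK family, among them SMG1, which starts nonsense-mediated decay, and it also acts on other kinases of the family.

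All signals are log2 values that the authors normalized to the same distribution on every array, whose median is 2.75 and whose upper quartile is 6.21. A difference of 1 between arrays is a doubling or halving relative to the other transcripts of the array, and a loss shared by all mRNAs leaves no trace in it. The probe sets for poly-A control transcripts, which come from a bacterium and can be added to RNA prior to labelling, bear on this. All 22 of these probe sets were higher on the array for actinomycin D alone than on the caffeine array in LNCaP, by a mean of 1.59 (SD 0.46 over probe sets). In 22Rv1 their mean difference was 1.18. All 18 hybridization control probe sets were also higher on that LNCaP array, by a mean of 0.62, against 0.08 in 22Rv1. How much of the poly-A shift they share was not tested, and the poly-A mean is used whole below. With every LNCaP difference lowered by the poly-A mean of 1.59, 18096 probe sets would be lower by at least 1 and 465 higher. The values below thus rank transcripts against each other and do not give absolute loss. The 5′ poly-A probe sets were higher by a mean of 1.98, the middle ones by 1.58 and the 3′ ones by 1.20, and the part of this slope in any result was not tested. The 3 probe sets of 18S rRNA averaged 6.25 on the LNCaP array for actinomycin D alone and 11.71 with caffeine kept, against 4.09 on the caffeine array and 5.60 on the untreated array. Both LNCaP actinomycin D arrays also stood apart from the other LNCaP arrays in genes induced by interferon, as described below.

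The luminal markers on the array were present in LNCaP. All 7 of the prostate luminal markers that could be matched had signals of at least 4 on each LNCaP array, and they lay between 6.64 and 12.01 after actinomycin D alone, against 6.94 and 12.41 after caffeine. The 4 leukocyte markers matched had signals of at most 2.28 on both arrays compared, and the 4 endothelial markers reached 2.29 after actinomycin D alone and 2.95 after caffeine. The 2 basal epithelial markers reached 2.50 after actinomycin D alone and 2.86 after caffeine. Of 5 fibroblast markers, COL1A1, a collagen chain, had 5.82 after actinomycin D alone, 5.29 with caffeine kept, 8.39 after caffeine and 8.50 untreated. DCN, the matrix proteoglycan decorin, had 2.27 after actinomycin D alone, 4.19 with caffeine kept, 4.01 after caffeine and 3.14 untreated, and the other fibroblast markers were under 4 on all LNCaP arrays.

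Differences spread in both directions. Of the 22157 probe sets, 2438 (11%) were lower by at least 1 after actinomycin D alone than after caffeine and 2237 (10.1%) were higher by at least 1. Of the 10782 genes, 1284 (11.9%) were lower by at least 1 and 504 (4.67%) were higher. The median difference was 0.00 over probe sets and -0.09 over genes, with an SD of 0.82 over genes and quartiles of -0.55 and 0.26. At a difference of 3 or more, 52 genes were lower and 37 were higher. At the signal limit the spread was similar on either side: the 348 probe sets whose higher signal was between 4 and 4.1 had an SD of 0.69, and the 387 just under 4 had an SD of 0.71.

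**Figure D1:**
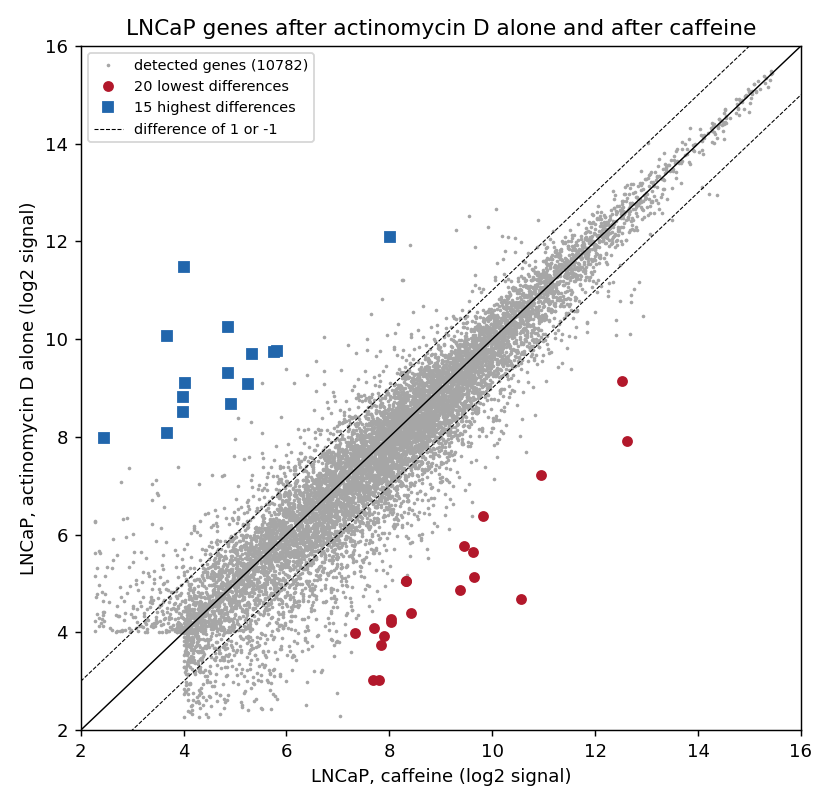
Log2 signals of 10782 genes on the LNCaP array for actinomycin D alone (y axis) and on the LNCaP caffeine array (x axis), with 1 point per gene; the solid line marks equal signals and the dashed lines a difference of 1 or -1. The 20 genes with the lowest differences lie at caffeine signals of 7.33 to 12.62, and 6 of the 15 with the highest differences had caffeine signals under 4.

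DDIT4, a stress-induced inhibitor of the growth kinase mTORC1, had the lowest difference. Its log2 signal was 4.68 after actinomycin D alone and 5.93 after actinomycin D with caffeine, against 10.56 after caffeine and 12.09 in untreated cells. The difference from caffeine was -5.88, a 58.9-fold lower signal. MYC, the growth-promoting transcription factor, had signals of 7.92 after actinomycin D alone and 9.31 with caffeine kept, against 12.62 after caffeine and 12.66 untreated. The MYC difference was -4.70 in LNCaP, and in 22Rv1 its signals were 5.61 after actinomycin D alone and 11.81 after caffeine. TRIB1, a pseudokinase that brings substrates to a ubiquitin ligase, was at 4.86 after actinomycin D alone and 4.67 with caffeine kept, against 9.38 after caffeine and 9.12 untreated. For these 3 genes both actinomycin D arrays were low and the caffeine and untreated arrays high.

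A second kind of profile had the array for actinomycin D alone low and the array with caffeine kept close to the caffeine array. EPC1, a subunit of the NuA4 histone acetyltransferase, had signals of 5.13 after actinomycin D alone, 8.86 with caffeine kept, 9.65 after caffeine and 7.83 untreated. CLK1, a kinase of SR splicing factors, had 5.66 after actinomycin D alone, 8.83 with caffeine kept, 9.63 after caffeine and 7.53 untreated. BRF2, which recruits RNA polymerase III to the U6 promoter, was at 3.75 after actinomycin D alone, 7.44 with caffeine kept, 7.85 after caffeine and 6.97 untreated. The signal of BRF2 after actinomycin D alone was under 4, so with signals under 4 set to 4 its difference was -3.85. ZNF473, a zinc finger protein of histone pre-mRNA processing, had 3.02 after actinomycin D alone, 7.06 with caffeine kept, 7.68 after caffeine and 5.97 untreated. TADA1, a subunit of the SAGA coactivator, had 6.39 after actinomycin D alone, 9.22 with caffeine kept, 9.81 after caffeine and 9.01 untreated. In each of these 5 genes the signal with caffeine kept was at least 2.83 above that after actinomycin D alone. With 1 array for each treatment, whether this gap exceeds the spread between cultures was not tested.

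Further genes among the 20 lowest follow. MED26, a Mediator subunit that joins elongation factors to RNA polymerase II, had 4.27 after actinomycin D alone, 5.04 with caffeine kept, 8.04 after caffeine and 7.44 untreated. BHLHE40, a repressor of the circadian clock, had 3.03 after actinomycin D alone, 6.59 with caffeine kept, 7.80 after caffeine and 9.63 untreated. PIM3, a serine/threonine kinase, had 4.22 after actinomycin D alone, 5.81 with caffeine kept, 8.04 after caffeine and 8.19 untreated. The remaining genes were ZNF627, PHLDA1, ARID5B, CITED2, ZNF689, BAMBI, SESN2, RIPK4 and DUSP1, whose differences with signals under 4 set to 4 lay between -4.01 for ZNF627 and -3.26 for DUSP1. DUSP1 encodes a phosphatase of MAP kinases, BAMBI a decoy receptor of TGF-beta signalling, CITED2 a partner of the coactivators CBP and p300, and SESN2 a leucine-sensing inhibitor of mTORC1. Probe sets of a gene did not always agree. For SESN2 another detected probe set had a difference of 0.15, for DUSP1 0.08 and for MED26 -0.30, while the others of EPC1 had -3.06 and -1.87 and those of PHLDA1 between -2.67 and -1.85.

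**Figure D2:**
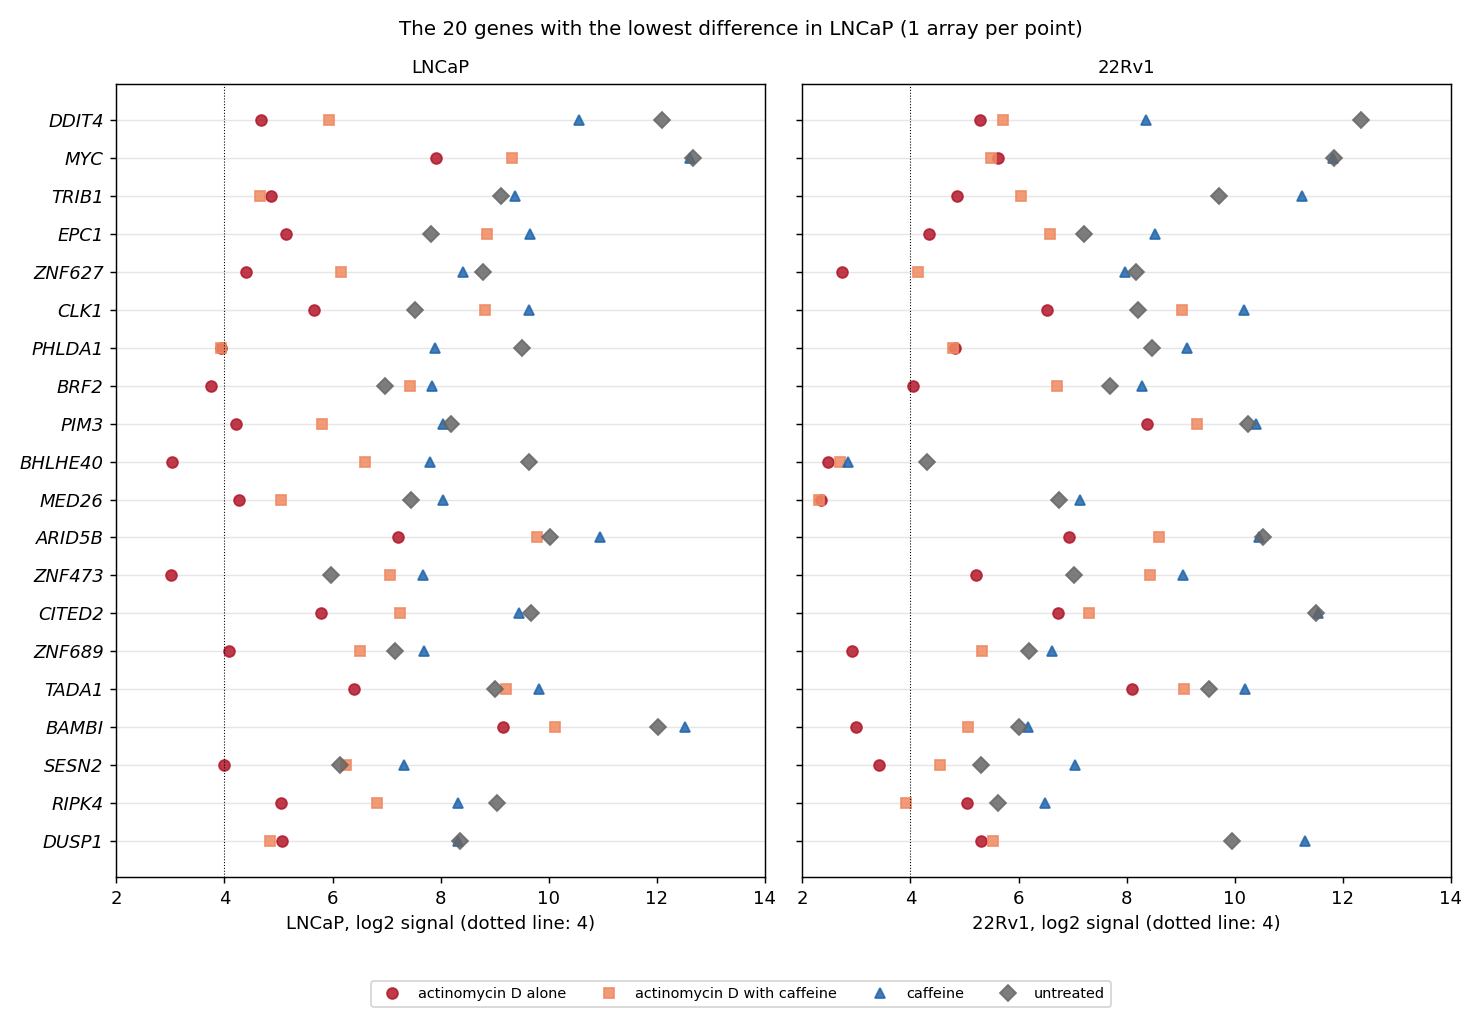
Log2 signals of the 20 genes with the lowest LNCaP difference, in LNCaP (left) and 22Rv1 (right), with 1 point per array and a dotted line at 4. The circles for actinomycin D alone lie left of the triangles for caffeine for all 20 genes in LNCaP, as at 4.68 and 10.56 for DDIT4, and BHLHE40 is near or under the line on all 22Rv1 arrays.

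The same difference in 22Rv1 comes from other arrays and so is an independent measurement. Of the 20 genes lowest in LNCaP, 19 were lower by at least 1 in 22Rv1 with signals under 4 set to 4, and BHLHE40 was not detected there. In 22Rv1, 1152 of 10952 detected genes (10.5%) were lower by at least 1 and 346 (3.16%) were higher. Over the 10168 genes detected in both lines the differences had a Pearson r of 0.64, which describes genes that share their arrays and is not a test over samples. Of 1161 such genes lower by at least 1 in LNCaP, 602 (51.9%) were also lower in 22Rv1, and these were 58.3% of the 1033 lower in 22Rv1. Of 353 higher in LNCaP, 73 (20.7%) were also higher in 22Rv1, which is 26.6% of the 274 higher there. Among all LNCaP genes higher by at least 1, 151 (30.0%) were not detected in 22Rv1 on either array, as against 123 (9.58%) of those lower by at least 1 and 5.69% of all genes.

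limma, a linear model with moderated variances, tested the mean response of both lines with cell line as a block and the lines as the replicates of a treatment. Of 21453 probe sets with a mean signal of at least 4, 399 (1.86%) fell and 102 (0.475%) rose after actinomycin D alone at a Benjamini-Hochberg adjusted p under 0.05. Of the 20 genes lowest in LNCaP, 17 were called lower; the LNCaP arrays that chose these genes are part of each estimate, so this count is a description and no support for the choice. The estimate for MYC was -5.45 (SE 0.75, limma adjusted p = 0.0333). The smallest limma adjusted p among the 20 was that of ZNF689, 0.0154, with an estimate of -3.66 (SE 0.19). PIM3 (limma adjusted p = 0.0542), RIPK4 (0.166) and BHLHE40 (0.247) did not pass. These calls rest on 3 residual degrees of freedom and on the cell line term. With no replicate block limma called 0 probe sets in either direction, and 1232 had an unadjusted p under 0.05. Without any response a share of 0.05 of the 21453 would be under that limit. A fit to only the 4 arrays compared also called 0, with 4252 at an unadjusted p under 0.05. A list with few limma calls is not shown to be unchanged, since the fit has few degrees of freedom for differences near 1.

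**Figure D3:**
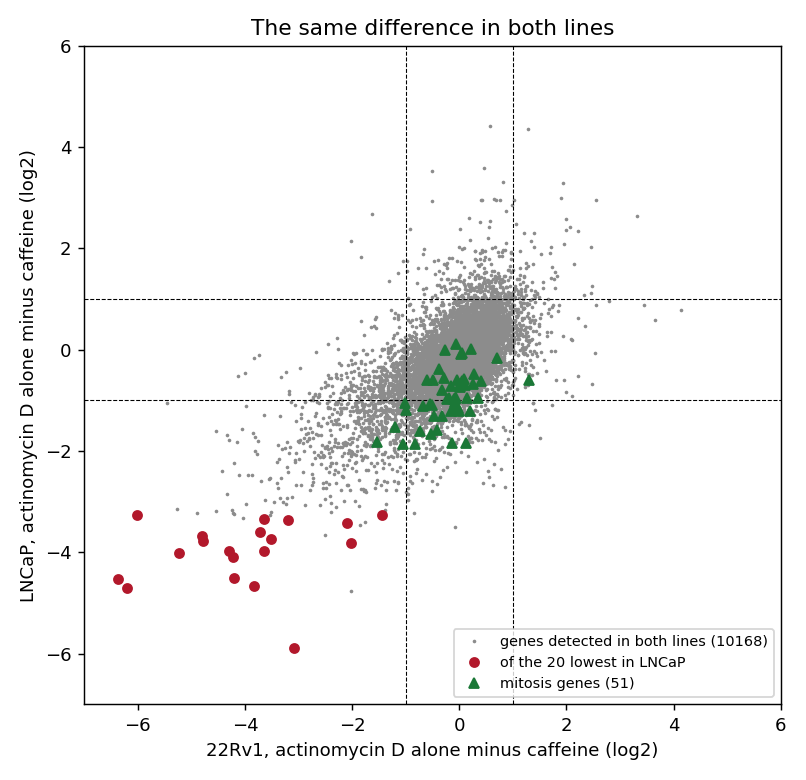
Actinomycin D alone minus caffeine (log2) in LNCaP (y axis) and 22Rv1 (x axis), with 1 point per gene for the 10168 genes detected in both lines and dashed lines at 1 and -1. Red points, those of the 20 lowest genes in LNCaP that were detected in 22Rv1, lie at or under -1 on both axes, and the mitosis genes (green triangles) centre on -0.96 in LNCaP and on -0.10 in 22Rv1.

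Lists of regulators, whose mRNAs are known to be short-lived, had the lowest medians. Of 16 detected immediate early genes, the first transcription factors and signals that cells induce on stimulation, 10 (62.5%) were lower by at least 1 and 0 higher, with a median of -1.45 against -0.09 for all genes, of which 11.9% were lower by at least 1. With signals under 4 set to 4, 9 members were past -1. KLF4 had 6.92 after actinomycin D alone, 8.69 with caffeine kept, 9.48 after caffeine and 7.25 untreated. KLF6 had 6.38 after actinomycin D alone, 8.53 with caffeine kept, 8.53 after caffeine and 6.02 untreated. Both Krüppel-like factors were thus higher after caffeine than in untreated cells, and the array for actinomycin D alone was near the untreated one. The KLF6 difference was -2.15 by this probe set, and other detected probe sets of KLF6 had -2.22, -0.43 and -0.15. IER5, another immediate early gene, had 5.63 after actinomycin D alone, 7.22 with caffeine kept, 7.79 after caffeine and 7.60 untreated. The median of the list in 22Rv1 was -2.59, and limma called 2 of 15 tested members lower, against 1.86% of all probe sets tested.

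Of 22 detected feedback inhibitors of signalling, 14 (63.6%) were lower by at least 1, against 11.9% of all genes, with a median of -1.93. Of the 22, 6 were under 4 after actinomycin D alone and so were included only through the caffeine array, and the count stayed at 14 with signals under 4 set to 4. They included the MAP kinase phosphatases DUSP1, DUSP2, DUSP4 and DUSP7, the TGF-beta inhibitors SMAD6, SMAD7 and SKIL, and the NF-kappaB inhibitors NFKBIA and TNFAIP3. PHLDA1, which acts on growth factor and insulin receptor signalling, had 3.93 after actinomycin D alone, 3.94 with caffeine kept, 7.90 after caffeine and 9.50 untreated. BAMBI had 9.15 after actinomycin D alone, 10.11 with caffeine kept, 12.52 after caffeine and 12.02 untreated. SMAD7 had 2.60 and 2.54 on the arrays for actinomycin D alone and with caffeine, against 5.37 after caffeine and 4.87 untreated. Not every inhibitor was lower: DUSP8, DUSP14 and NFKBIE had differences of 0.17, 0.13 and 0.06. In 22Rv1 20 of 27 detected members were lower by at least 1, against 10.5% of all genes detected there.

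Of 12 detected ID, HES and other repressors, 7 (58.3%) were lower by at least 1, against 11.9% of all genes, with a median of -1.74. Of the 12, 3 were under 4 after actinomycin D alone and so were included only through the caffeine array. With signals under 4 set to 4 the count stayed at 7 and the median was -1.52. TGIF1, a repressor of TGF-beta targets, had 5.56 after actinomycin D alone, 6.17 with caffeine kept, 8.41 after caffeine and 7.55 untreated (limma estimate -3.59, SE 0.37, adjusted p = 0.0264). BCL6, a repressor best known from B cells, had 10.76 after actinomycin D alone, 11.88 with caffeine kept, 12.69 after caffeine and 12.01 untreated (limma estimate -2.07, SE 0.27, adjusted p = 0.0313). HES1, the Notch target, stood apart between the lines, with a difference of -0.46 in LNCaP and -4.0 in 22Rv1. Whether the lines differ in any gene could not be tested with 1 array each.

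Stress genes downstream of ATF4, the transcription factor of the amino acid response, were all lower, by differing amounts. Of 29 detected members 13 (44.8%) were lower by at least 1, against 11.9% of all genes. All 29 had a difference under 0, with a median of -0.88. Of the 29, 4 were under 4 after actinomycin D alone and so were included only through the caffeine array. With signals under 4 set to 4 the count stayed at 13 and the median at -0.88. DDIT3, the CHOP transcription factor, had 6.12 after actinomycin D alone, 9.32 with caffeine kept, 9.16 after caffeine and 7.81 untreated. PPP1R15A, which restores translation by dephosphorylating eIF2 alpha, had 3.87 after actinomycin D alone, 6.67 with caffeine kept, 6.87 after caffeine and 4.03 untreated. For both, the signals with caffeine kept and after caffeine lay close together and above the untreated array. limma called 9 of the 29 lower, against 1.86% of all probe sets tested, with DDIT3 at -3.52 (SE 0.34, limma adjusted p = 0.0264). Metabolic enzymes of the list, picked after their values were seen, had differences of -0.58 for CTH of cysteine synthesis, -0.49 for PHGDH and -0.04 for PSAT1 of serine synthesis, -0.20 for ASNS, which makes asparagine, and -0.16 for PCK2. The 17 aminoacyl-tRNA synthetases had a median of -0.10 with 0 past 1 in either direction.

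**Figure D4:**
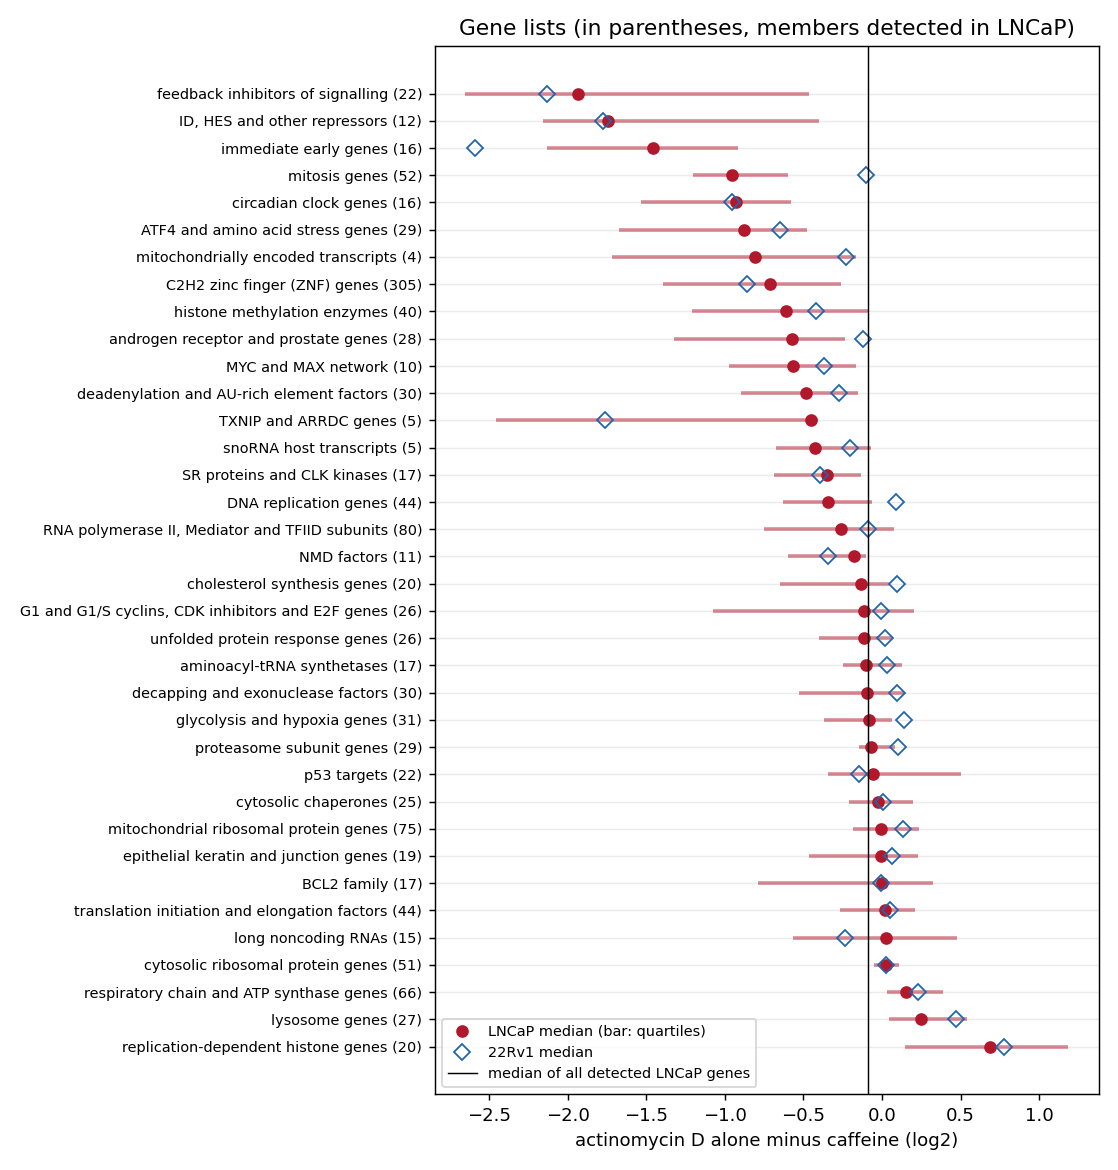
Median difference, actinomycin D alone minus caffeine (log2), of 36 gene lists in LNCaP (red circles, with bars from the lower to the upper quartile) and in 22Rv1 (open diamonds); the vertical line is the median of all detected LNCaP genes, -0.09. Feedback inhibitors (-1.93), repressors (-1.74) and immediate early genes (-1.45) lie lowest, and replication-dependent histone genes (0.69, or -0.90 when lowered by the poly-A probe sets) highest. With signals under 4 set to 4, the medians were -1.38 for feedback inhibitors, -1.52 for repressors and -1.29 for immediate early genes.

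Of 80 detected subunits of RNA polymerase II, Mediator and TFIID, 13 (16.2%) were lower by at least 1 and 0 higher, with a median of -0.26, against 11.9% lower among all genes, which is a share near the background. Besides MED26, TAF5 of TFIID had 7.18 after actinomycin D alone, 8.36 with caffeine kept, 9.35 after caffeine and 8.42 untreated, and its limma estimate was -1.99 (SE 0.26, adjusted p = 0.0315). TAF4, the scaffold of TFIID, had 5.50 after actinomycin D alone, 7.31 with caffeine kept, 7.51 after caffeine and 7.33 untreated. MED17, a core subunit of the Mediator head, had 7.81 after actinomycin D alone, 8.80 with caffeine kept, 9.56 after caffeine and 9.08 untreated.

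C2H2 zinc finger genes, most of which encode DNA-binding repressors, were the largest list. Of 305 detected ZNF genes 114 (37.4%) were lower by at least 1 and 7 (2.30%) higher, against 11.9% and 4.67% of all genes. Their median was -0.71. In 22Rv1 142 of 314 were lower, against 10.5% of all genes detected there. Of the 305, 52 were under 4 after actinomycin D alone and so were included only through the caffeine array, and with signals under 4 set to 4 the count was 101. limma called 47 of 288 tested lower and 1 higher, against 1.86% and 0.475% of all probe sets tested. ZNF627 had 4.40 after actinomycin D alone, 6.16 with caffeine kept, 8.41 after caffeine and 8.78 untreated. ZNF689 had 4.09 after actinomycin D alone, 6.51 with caffeine kept, 7.70 after caffeine and 7.16 untreated. ZNF57 had 3.95 after actinomycin D alone, 4.95 with caffeine kept, 7.14 after caffeine and 7.87 untreated. All 3 of these genes had their lowest LNCaP signal on the array for actinomycin D alone.

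Histone methylation enzymes had 11 of 40 members (27.5%) lower by at least 1, against 11.9% of all genes, and 1 higher. Their median was -0.61. JMJD1C, a demethylase of the JmjC family, had 4.69 after actinomycin D alone, 6.33 with caffeine kept, 7.80 after caffeine and 7.04 untreated. Another detected probe set of JMJD1C had a difference of -0.36. KMT2D, a methyltransferase of H3K4, had 6.31 after actinomycin D alone, 7.28 with caffeine kept, 8.09 after caffeine and 7.30 untreated (limma estimate -1.51, SE 0.22, adjusted p = 0.0371). DOT1L, the H3K79 methyltransferase, had 5.13 after actinomycin D alone and 6.95, 6.96 and 7.02 with caffeine kept, after caffeine and untreated. In 22Rv1 the DOT1L difference was 0.23. The member that was higher, SETD5, is described with the highest genes.

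For genes of RNA turnover and splicing the counts are small and are read against the 11.9% of all genes that were lower by at least 1. CLK4, a relative of CLK1, had 6.60 after actinomycin D alone, 8.51 with caffeine kept, 8.85 after caffeine and 7.20 untreated, and its limma estimate was -2.50 (SE 0.30, adjusted p = 0.0289). The 17 SR proteins and CLK kinases had a median of -0.35, with CLK1, CLK4 and TRA2B (17.6%) lower by at least 1. Other detected probe sets of TRA2B had differences of -0.59 and 0.82. Of 30 deadenylation and AU-rich element factors 6 (20%) were lower by at least 1, among them BTG1, which recruits the CCR4-NOT deadenylase, at 10.05 after actinomycin D alone, 10.95 with caffeine kept, 11.61 after caffeine and 11.45 untreated. Another detected probe set of BTG1 had a difference of 1.10. Of 11 factors of nonsense-mediated decay, SMG8 and SMG9 (18.2%), which form a complex with SMG1, were lower by 1.27 and 1.08. The snoRNA host transcripts, natural substrates of this decay, had 5 detected members with a median of -0.42, and SNHG17 had 8.07 after actinomycin D alone, 9.77 with caffeine kept, 10.21 after caffeine and 8.21 untreated. For SNHG17 the arrays that had caffeine to the end were the high ones, and its limma estimate was -1.97 (SE 0.20, adjusted p = 0.0264).

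Regulators of cell death and of the cell cycle were mixed within their lists. BCL2L11, the pro-apoptotic protein BIM, had 6.67 after actinomycin D alone, 8.12 with caffeine kept, 9.60 after caffeine and 8.71 untreated (limma estimate -3.13, SE 0.29, adjusted p = 0.0263). Its other detected probe sets had differences between -1.23 and -0.39. MCL1, the short-lived antagonist of BIM, had 10.97 after actinomycin D alone, 11.83 with caffeine kept, 12.04 after caffeine and 10.99 untreated. Other probe sets of MCL1 had differences between -0.85 and 1.54. BAX, an effector of apoptosis, was higher, at 7.04 after actinomycin D alone and 7.32 with caffeine kept, against 5.61 after caffeine and 5.63 untreated. Of 22 detected p53 targets 5 (22.7%) were lower by at least 1 and 2 (9.09%) higher, against 11.9% and 4.67% of all genes. PPM1D, the phosphatase that restrains p53, had 6.31 after actinomycin D alone, 7.36 with caffeine kept, 8.56 after caffeine and 8.53 untreated, whereas CDKN1A, the p21 inhibitor of CDKs, had a difference of 0.64. CDKN1B, the p27 inhibitor, had 8.45 after actinomycin D alone, 8.96 with caffeine kept, 10.83 after caffeine and 9.42 untreated (limma adjusted p = 0.0502).

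Genes of mitosis were lower in LNCaP more widely than in 22Rv1. Of 52 detected members 22 (42.3%) were lower by at least 1, against 11.9% of all genes. Of the 52, 50 had a difference under 0, with a median of -0.96 and a range of -1.86 to 0.11. In 22Rv1 4 of 51 were lower by at least 1, against 10.5% of all genes detected there, and the median was -0.10. The LNCaP difference was below the 22Rv1 difference for 49 of the 52. The share of all genes with this order was not counted, and the median over all detected genes was -0.09 in LNCaP and 0.03 in 22Rv1. Other lists varied, with 34 of 44 for DNA replication genes and 7 of 22 for feedback inhibitors. The kinase AURKA had 9.51 after actinomycin D alone, 10.41 with caffeine kept, 11.36 after caffeine and 10.06 untreated in LNCaP. MKI67, the proliferation marker Ki-67, had 8.17 after actinomycin D alone, 8.88 with caffeine kept, 10.01 after caffeine and 9.33 untreated in LNCaP. In 22Rv1 MKI67 was at 8.56 after actinomycin D alone and 8.43 after caffeine. limma, which averages both lines, called 1 of 51 tested members lower, against 1.86% of all probe sets tested. DNA replication genes had a median of -0.34 with 4 of 44 (9.09%) lower by at least 1, under the 11.9% of all genes, and GINS4 of the replicative helicase was higher, at 8.31 after actinomycin D alone, 7.63 with caffeine kept, 5.32 after caffeine and 7.37 untreated.

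Of 28 detected prostate and androgen-regulated genes 8 (28.6%) were lower by at least 1, against 11.9% of all genes, with a median of -0.57. In 22Rv1 2 of 27 were lower by at least 1, against 10.5% of all genes detected there, with a median of -0.12. Of the 28, 3 had a difference above 0, such as FOLH1, prostate-specific membrane antigen, at 7.38 after actinomycin D alone, 6.94 with caffeine kept, 6.94 after caffeine and 8.23 untreated. ACP3, prostatic acid phosphatase, had the lowest difference, at 4.95 after actinomycin D alone, 5.94 with caffeine kept, 7.61 after caffeine and 4.18 untreated. The untreated array was thus the lowest for ACP3. SLC45A3, the prostate protein prostein, had 7.59 after actinomycin D alone, 8.51 with caffeine kept, 10.09 after caffeine and 10.12 untreated. KLK2, a secreted kallikrein, had 9.13 after actinomycin D alone, 9.80 with caffeine kept, 10.70 after caffeine and 10.44 untreated. KLK3, which encodes prostate-specific antigen, had 6.64 after actinomycin D alone, 6.77 with caffeine kept, 7.96 after caffeine and 7.91 untreated. TMPRSS2, an androgen-induced protease, had 8.70 after actinomycin D alone, 9.21 with caffeine kept, 10.29 after caffeine and 10.83 untreated. In 22Rv1 the differences were 0.56 for SLC45A3, 0.03 for KLK2, 0.71 for KLK3 and -0.42 for TMPRSS2, and limma called 0 of the 28 members, with TMPRSS2 at an estimate of -1.01 (SE 0.41, limma adjusted p = 0.23).

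Clock genes and arrestin-related genes held some of the lower values. Of 16 detected circadian clock genes 8 (50%) were lower by at least 1, or 7 with signals under 4 set to 4. Their median was -0.93, and 11.9% of all genes were lower by at least 1. CIART, a repressor of the clock, had 4.95 after actinomycin D alone, 7.53 with caffeine kept, 7.91 after caffeine and 7.80 untreated. NFIL3, a bZIP repressor, had 5.28 after actinomycin D alone, 7.06 with caffeine kept, 7.75 after caffeine and 7.20 untreated. ARRDC3, an alpha-arrestin, had 5.71 after actinomycin D alone, 7.49 with caffeine kept, 8.72 after caffeine and 6.82 untreated (limma estimate -3.15, SE 0.22, adjusted p = 0.0257). TXNIP, which binds thioredoxin and limits glucose uptake, had 10.47 after actinomycin D alone, 12.52 with caffeine kept, 12.92 after caffeine and 11.54 untreated. This is a difference of -2.45, while other detected probe sets of TXNIP had -0.78 and -0.26. PARD3, the polarity gene that the study examined in LNCaP, had 4.72 after actinomycin D alone, 6.29 with caffeine kept, 6.13 after caffeine and 3.23 untreated, and 0.41 as its difference in 22Rv1.

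Several large groups stayed near 0 on this relative scale. All 51 detected cytosolic ribosomal protein genes lay between -0.23 and 0.28, with a median of 0.02. The 66 nuclear genes of the respiratory chain and ATP synthase had a median of 0.16 and a range of -0.30 to 0.79. Proteasome subunits (29 genes, median -0.07), unfolded protein response genes (26, -0.11) and cytosolic chaperones (25, -0.02) had 0 members past 1 in either direction. Mitochondrial ribosomal protein genes (75, -0.01) had MRPS30 alone past 1, at -1.13, and other MRPS30 probe sets had differences of 0.18 and 1.47. Lysosome genes had a median of 0.25, or -1.34 when lowered by the poly-A probe sets, with LAMP2 (1.04) and CTSZ (1.01) higher by at least 1. Of 4 mitochondrially encoded transcripts, ND4 (-0.20) and ATP6 (-0.05) were near 0, and ND2, a subunit of respiratory complex I, had 12.96 after actinomycin D alone, 12.83 with caffeine kept, 14.38 after caffeine and 14.05 untreated. ND6, from the other strand of the mitochondrial genome, had 6.01 after actinomycin D alone, 5.91 with caffeine kept, 8.63 after caffeine and 9.39 untreated, but a difference of 0.44 in 22Rv1.

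Replication-dependent histone genes, whose mRNAs end in a stem-loop in place of a poly-A tail, were the only one of the 36 lists with a median above 0.25. Of 20 detected genes 7 (35%) were higher by at least 1, against 4.67% of all genes, and 0 lower. H2BC4, among the 7, was under 4 after caffeine and was included only through the array for actinomycin D alone. Of the 19 at or above 4 after caffeine, 6 were higher by at least 1. The median was 0.69 in LNCaP, which turns to -0.90 when lowered by the poly-A probe sets, and 0.78 over 11 genes in 22Rv1. H2BC4 had 6.57 after actinomycin D alone, 4.05 with caffeine kept, 3.62 after caffeine and 4.39 untreated. H2AC17 had 7.36 after actinomycin D alone, 6.95 with caffeine kept, 5.87 after caffeine and 6.26 untreated. Histone genes are near-identical copies of each other, so their probe sets may share transcripts, and limma called 0 of 16.

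Of the 15 genes with the highest differences, 13 were under 4 on all 22Rv1 arrays. TDO2, the tryptophan dioxygenase of the kynurenine pathway, had 11.47 after actinomycin D alone and 10.97 with caffeine kept, against 4.0 after caffeine and 4.80 untreated. Its caffeine signal was just under 4, so with that signal set to 4 it was at least 177-fold higher. OASL, an antiviral relative of oligoadenylate synthetase, had 10.07 after actinomycin D alone and 9.65 with caffeine kept, against 3.69 after caffeine and 4.38 untreated. PLAAT4, an interferon- and retinoid-induced acyltransferase, had 10.24 after actinomycin D alone and 9.74 with caffeine kept, against 4.86 after caffeine and 5.48 untreated. In all 3 genes both actinomycin D arrays were high and the caffeine and untreated arrays low, with no overlap.

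The antiviral IFIT proteins bind foreign RNA, and IFIT1, IFIT2 and IFIT3 had both actinomycin D arrays high. IFIT1 had 9.31 after actinomycin D alone and 8.43 with caffeine kept, against 4.86 after caffeine and 5.97 untreated. IFIT2 had 9.76 after actinomycin D alone and 9.40 with caffeine kept, against 5.83 after caffeine and 4.02 untreated. IFIT3 had 8.82 after actinomycin D alone and 7.33 with caffeine kept, against 3.99 after caffeine and 2.35 untreated. IFIT5 did not have this order, with 4.22 after actinomycin D alone and 3.21 with caffeine kept, against 3.48 after caffeine and 3.99 untreated. IFI44, IFI6 and CXCL10, the last a chemokine that attracts T cells, are also induced by interferon. IFI44 had 9.10 after actinomycin D alone and 9.15 with caffeine kept, against 4.04 after caffeine and 4.19 untreated. IFI6 had 9.73 after actinomycin D alone and 8.77 with caffeine kept, against 5.77 after caffeine and 5.70 untreated. CXCL10 had 7.99 after actinomycin D alone and 5.99 with caffeine kept, against 2.46 after caffeine and 2.36 untreated. In 22Rv1 each of these 6 genes stayed at or under 4.04 on all 4 arrays.

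Promoters were searched for a sequence known from interferon-induced genes, because such genes stood among the 15 highest. Its share among the 15 is thus a description and no support. The interferon-stimulated response element, to which STAT and IRF factors bind, was searched as GAAANNGAAA on both strands in RefSeq promoters of GRCh38.p14, from 250 bases before to 50 after each gene start. Of the 15 highest genes 10 had a listed promoter. These included 5 of the 7 on the list of interferon-induced genes described below, with OASL and IFIT2 missing. The letters were found in 5 of the 10, all on that list, namely IFI44, IFIT3, IFIT1, CXCL10 and IFI6. The share was 4.38% for all 27305 genes with a promoter and 3.83% for the detected LNCaP genes with one. Counted by promoter, 7 of 15 held them, against 1255 of all 35116 promoters (3.57%). They were not found in those of TDO2, SETD5, LCN2, IL32 and PLA2G2A, nor in those of the 15 of the 20 lowest genes with a promoter in the table. The stretches around the matches follow, 5′ to 3′ on the strand of the gene, with the matched letters in capitals, and IFIT3 appears with both of its listed starts.
IFI44 (chr1:78649746-78649805, plus strand): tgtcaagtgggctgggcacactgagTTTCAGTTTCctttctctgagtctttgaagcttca
IFIT3 (chr10:89327816-89327909, plus strand): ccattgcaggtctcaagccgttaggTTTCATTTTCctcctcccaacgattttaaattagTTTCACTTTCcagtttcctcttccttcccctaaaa
IFIT3 (chr10:89332410-89332512, plus strand): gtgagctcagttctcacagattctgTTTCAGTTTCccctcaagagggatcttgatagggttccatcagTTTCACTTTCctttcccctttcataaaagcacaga
IFIT1 (chr10:89392482-89392554, plus strand): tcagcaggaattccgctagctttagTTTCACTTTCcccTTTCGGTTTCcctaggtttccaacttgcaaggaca
CXCL10 (chr4:76023684-76023743, minus strand): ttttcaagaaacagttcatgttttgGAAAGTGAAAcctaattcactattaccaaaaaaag
IFI6 (chr1:27672251-27672373, minus strand): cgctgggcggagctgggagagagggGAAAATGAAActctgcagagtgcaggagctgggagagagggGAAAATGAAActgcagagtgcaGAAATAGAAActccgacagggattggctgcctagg
In IFI44, IFIT3 and IFIT1 the match lies on the other strand, and in CXCL10 and IFI6 on the strand shown. The stretch of IFI44 serves both of its listed starts. These matches are descriptions of the letters only, and they do not show that a factor was bound.

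Other genes among the 15 highest follow. LCN2, lipocalin 2, which binds bacterial iron carriers, had 12.09 after actinomycin D alone and 12.30 with caffeine kept, against 8.02 after caffeine and 7.87 untreated. CP, the copper oxidase ceruloplasmin, had 8.51 after actinomycin D alone and 7.90 with caffeine kept, against 4.0 after caffeine and 3.96 untreated. CES1, a carboxylesterase of liver, had 8.08 after actinomycin D alone and 7.53 with caffeine kept, against 3.69 after caffeine and 3.65 untreated. All 3 were under 4 on every 22Rv1 array, with CES1 between 3.05 and 3.12. IL32, a cytokine, had 9.09 after actinomycin D alone and 8.41 with caffeine kept, against 5.25 after caffeine and 5.86 untreated. PLA2G2A, a secreted phospholipase, had 8.68 after actinomycin D alone and 7.74 with caffeine kept, against 4.93 after caffeine and 5.57 untreated. SETD5 had 9.69 after actinomycin D alone and 9.92 with caffeine kept, against 5.33 after caffeine and 6.92 untreated, while its other detected probe sets had differences of 0.05 and 1.503. It was the only one of the 15 higher by at least 1 in 22Rv1, at 5.38 after actinomycin D alone and 4.09 after caffeine. limma called 0 of the 13 tested, and the test is of the mean of both lines.

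**Figure D5:**
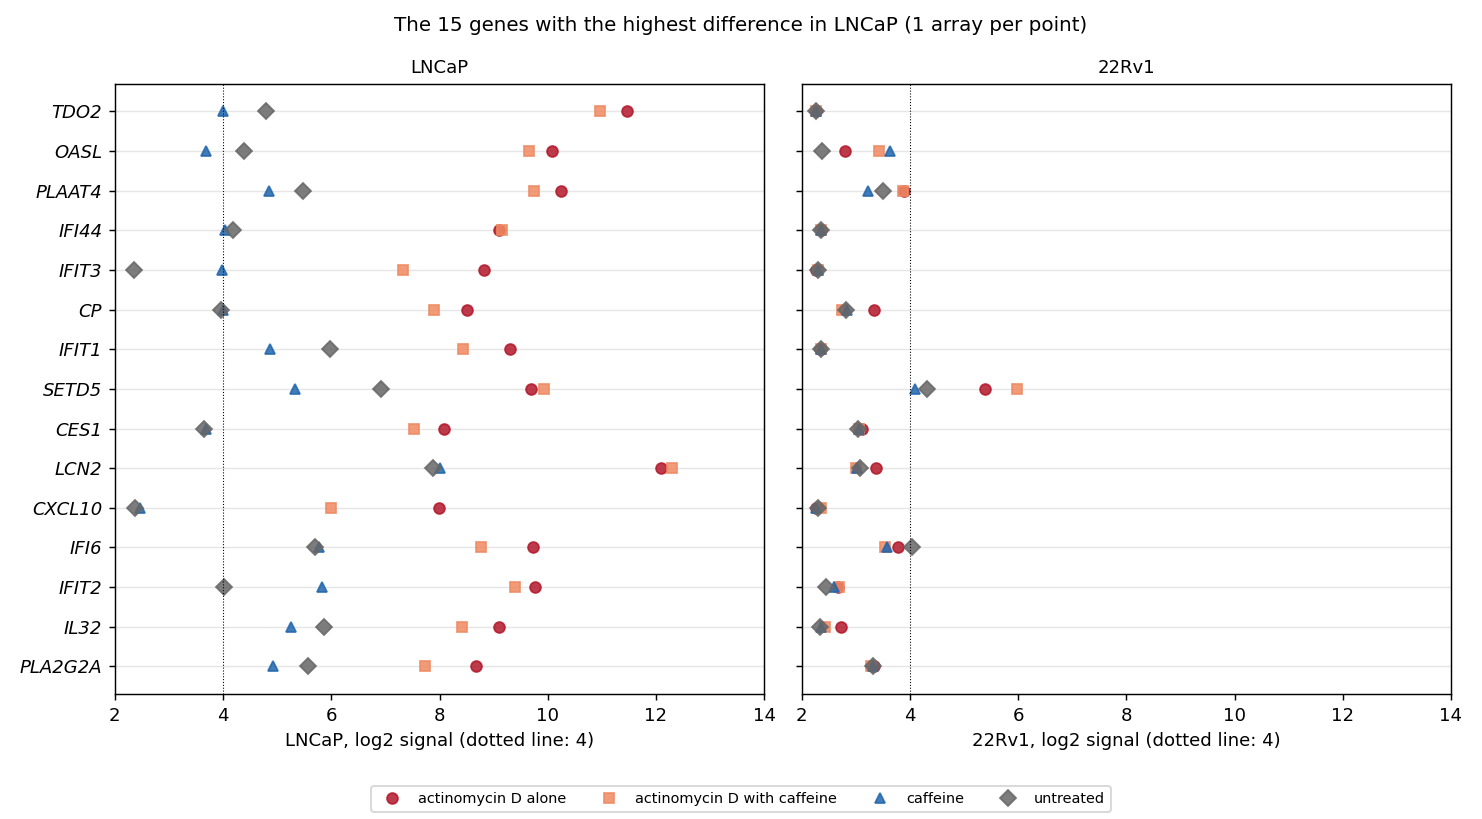
Log2 signals of the 15 genes with the highest LNCaP difference, in LNCaP (left) and 22Rv1 (right), with 1 point per array and a dotted line at 4. In LNCaP the circles and squares of both actinomycin D arrays lie right of the triangles and diamonds for all 15 genes, as at 11.47 and 10.97 against 4.0 and 4.80 for TDO2, and 13 of the 15 are under 4 on all 22Rv1 arrays.

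Wider lists of the same kind, chosen after the values were seen, gave the breadth of this pattern. Of 33 detected interferon-induced genes 20 (60.6%) were higher by at least 1, against 4.67% of all genes, and 0 lower. Their median was 1.51, or 0.99 with signals under 4 set to 4 and -0.07 when lowered by the poly-A probe sets. Of the 33, 12 were under 4 after caffeine and were included only through the array where they are high, so they had to differ. With signals under 4 set to 4 the count was 16, and of the 21 at or above 4 after caffeine 9 were higher by at least 1. GBP2, a guanylate-binding protein, had 7.12 after actinomycin D alone and 6.26 with caffeine kept, against 3.47 after caffeine and 3.51 untreated. ISG15, a ubiquitin-like protein, had 12.30 after actinomycin D alone and 12.17 with caffeine kept, against 9.91 after caffeine and 10.53 untreated. ISG15 was expressed in 22Rv1, at 12.65 after actinomycin D alone and 12.64 after caffeine. The interferon regulators IRF1, IRF7 and IRF9 had differences of -0.26, -0.04 and -0.24. Another detected probe set of IRF1 had -2.05, with 3.99 after actinomycin D alone and 6.05 after caffeine. All 14 detected antigen presentation genes were above 0, with 5 (35.7%) higher by at least 1, against 4.67% of all genes. Their median was 0.90, which turns to -0.69 when lowered by the poly-A probe sets. Of these, HLA-DRA and PSMB9 were under 4 after caffeine and were included only through the array for actinomycin D alone, and both are among the 5. HLA-B had 11.80 after actinomycin D alone and 11.35 with caffeine kept, against 10.24 after caffeine and 10.33 untreated. B2M, the light chain of class I molecules, had 14.02 after actinomycin D alone and 13.78 with caffeine kept, against 13.03 after caffeine and 13.06 untreated. VIM, the intermediate filament vimentin, which was singled out after its values were seen, had 9.34 after actinomycin D alone and 9.64 with caffeine kept, against 6.74 after caffeine and 6.58 untreated. The leukocyte markers, as given above, were at or near the lowest signal of the arrays on both. What set both LNCaP actinomycin D arrays apart in these genes was not tested.

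The genes in which the lines differed most came from both ends. The 5 with the most positive gap between the LNCaP and 22Rv1 differences were TDO2, OASL, PLAAT4, IFI44 and IFIT3, which had no signal above 4 in 22Rv1. At the other end BHLHE40 had a gap of -3.80. HPGD, which degrades prostaglandins, had 4.20 after actinomycin D alone and 6.91 after caffeine in LNCaP, and 10.76 after actinomycin D alone and 9.91 after caffeine in 22Rv1. PPP1R3D, a subunit that targets protein phosphatase 1 to glycogen, had 5.04 after actinomycin D alone and 8.26 after caffeine in LNCaP, and 3.28 and 4.12 for the same treatments in 22Rv1. SOWAHC and UBXN7 completed the 5, and UBXN7 was there because its difference was 3.91 in 22Rv1 with signals under 4 set to 4 and 0.78 in LNCaP.

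Probe sets of the same gene could differ. Probe sets other than the chosen one of a gene were higher by at least 1 in 16.5% of 8186 cases and lower in 9.05%, whereas 4.67% of genes were higher by their chosen probe set. With signals under 4 set to 4, the 782 other probe sets of genes lower by at least 1 were lower by at least 1 in 239 cases (30.6%), higher in 72 and within 1 of 0 in 471. The 343 other probe sets of genes higher by at least 1 were higher in 149 cases (43.4%), lower in 9 and within 1 of 0 in 185. Of 5008 genes with more than 1 detected probe set, 89 had one lower and another higher by at least 1, with signals under 4 set to 4. MALAT1, a nuclear long noncoding RNA, had 12 detected probe sets with differences between -1.11 and 5.58, and the chosen one had 12.45 after actinomycin D alone and 10.89 after caffeine. CTNNB1, which encodes beta-catenin, had a difference of 0.68 by its chosen probe set, with others at -1.06 and 3.68. Long noncoding RNAs as a biotype (394 genes) had a median of 0.04 with 9.39% lower and 8.88% higher, against -0.09, 12% and 4.43% for 10223 protein-coding genes. FTX, a noncoding RNA of the X inactivation centre, had 7.36 after actinomycin D alone, 5.29 with caffeine kept, 2.95 after caffeine and 4.29 untreated.

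In 5 equal groups by genomic span, from the shortest to the longest genes, the median difference was 0.01, -0.06, -0.12, -0.16 and -0.13, with 11.1% to 13.5% of genes lower by at least 1. In 5 equal groups by the caffeine signal, from 4 upward, the share lower by at least 1 was 12.6%, 17%, 13.6%, 11.3% and 6.4%. The share higher was 6.17%, 4.98%, 3.56%, 1.57% and 0.949%, so both shares were lowest in the group with the highest caffeine signal. The caffeine signal is itself subtracted in the difference, so the grouping can in part set this trend. Chromosome medians lay between -0.18 for chromosome 13 and 0.10 for the X chromosome.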

How the data were processed

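The values are log2 signals that the authors deposited for 8 U133 Plus 2.0 arrays, 1 per cell line and treatment. The authors corrected the background, equalised the quantiles of the arrays and summarised the probes with gcRMA. RMA and GCRMA stand in the notes of the submitters on processing, without a version. Total RNA was labelled as biotinylated cRNA, and the depth of an array has no count, so the number of arrays limits the precision. Nothing was normalized again.

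A gene was named through the annotation of the array: 41097 probe sets had 1 symbol, 1801 several and 11777 none, and 41043 of the first were found among RefSeq genes of GRCh38.p14, with 0 symbols updated. Genes that no single-symbol probe set reports are not analysed here. Differences are actinomycin D alone minus caffeine. With 1 array per group no test was made for LNCaP, and calls are differences of at least 1. The limma fit (limma 3.58.1 in R 4.3.3) had terms for cell line and treatment, 3 degrees of freedom left for the residuals and 2.93 for the prior, and was tested on simulated data; Benjamini-Hochberg adjustment ran over all probe sets tested.

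The genes named are the 20 lowest and 15 highest with signals under 4 set to 4, the 4 members of each of 36 lists with the largest differences, and the 5 with the largest gap between lines in each direction; other genes named were picked after their values were seen, as were the interferon and antigen presentation lists. Members and lists were chosen with earlier results of these data known. Promoters come from RefSeq. Other computations used python 3.11.15, numpy 2.4.6 and pandas 2.3.3, with figures by matplotlib 3.10.9. Alternatives covered cut-offs, signal limits, other arrays, centring on the median, lowering by the poly-A probe sets, all probe sets of a gene, and other limma settings.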

Additional observations from a re-analysis of the deposited data

Results flagged for a closer look

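In 11 genes the LNCaP difference between actinomycin D alone and caffeine went one way by at least 1 and the 22Rv1 difference the other way by at least 1, with signals under 4 set to 4 and 1 array each. With signals as deposited there were 8 genes lower in LNCaP and higher in 22Rv1 and 6 the other way. The values below are as deposited, and no test of the lines against each other was possible, so this was not tested. Higher in LNCaP and lower in 22Rv1 were ZNF292 (2.68 in LNCaP, -1.63 in 22Rv1), AGO2, the small RNA slicer (2.15 in LNCaP, -2.02 in 22Rv1), LRATD1 (1.84 in LNCaP, -1.84 in 22Rv1), IRAK2 (1.75 in LNCaP, -1.05 in 22Rv1), NAPEPLD (1.52 in LNCaP, -1.15 in 22Rv1) and EPAS1, the hypoxia factor HIF-2 alpha (1.36 in LNCaP, -1.31 in 22Rv1). Lower in LNCaP and higher in 22Rv1 were CARM1, an arginine methyltransferase (-1.48 in LNCaP, 1.31 in 22Rv1), ARHGAP32 (-1.46 in LNCaP, 1.11 in 22Rv1), FAM13A-AS1 (-1.43 in LNCaP, 1.16 in 22Rv1), TAOK3 (-1.09 in LNCaP, 1.73 in 22Rv1) and IBA57 (-1.05 in LNCaP, 1.37 in 22Rv1).

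Probe sets for 18S rRNA, which are not part of the mRNA comparison, were higher after actinomycin D alone than after caffeine in LNCaP by a mean of 2.16.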

How the results depend on the processing

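Without replicates the LNCaP counts are counts past a cut-off and depend on it. The 2438 lower and 2237 higher probe sets became 1517 lower at a cut-off of 1.3, 511 lower and 788 higher at 2, 1598 lower and 1481 higher with a signal of at least 6 in either array, 1422 higher with at least 4 in both, and 1284 lower and 504 higher with 1 probe set per gene. Lowered by the poly-A probe sets, 18096 were lower and 465 higher, and the lists with a median of at most -1 numbered 35 in place of 3. The cause of the poly-A shift was not tested.

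The limma calls for both lines, 399 lower and 102 higher, rest on cell line as the block: with no replicate block there were 0 lower and 0 higher, with only the 4 arrays compared 0 and 0, and without a filter on low signals 4 and 2. With a mean signal of at least 6 there were 179 higher, and with the poly-A probe sets used to scale the arrays 17581 lower and 57 higher. Leaving out a line leaves no residual degrees of freedom, so that fit was not run.

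Lowering by the poly-A probe sets turned the median of the interferon-induced genes to -0.073, and the differences of BAX to -0.16, H2AC14 to -0.044, H2AC17 to -0.090, MALAT1 to -0.033, EIF1AX to -0.49, LAMP2 to -0.55, CTSZ to -0.57, IFI27 to -0.073, IFITM1 to -0.39, PARP9 to -0.13, CMPK2 to -0.34, HLA-B to -0.028 and PSMB10 to -0.0058. The mean over all detected probe sets of a gene turned MGA to 0.47, MCL1 to 0.016, EXOSC6 to 0.77 and MRPS30 to 0.17. Subtracting the median difference changed the call of 0 of 206 gene values.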
